A study of Mus musculus with 12 samples.

Results

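The 28 genes described here belong to the cholesterol pathway of the mouse liver. They were taken by gene name from a list of the pathway. All 28 were found among the 55401 genes counted, and all 28 were among the 15982 genes kept for testing after a filter on low counts. In the order of the pathway, 8 encode enzymes of the mevalonate steps, 3 the steps from squalene to lanosterol and 9 the steps from lanosterol to cholesterol. A further 4 encode parts of the sterol sensor, and 4 encode proteins of sterol transport and esterification. The list carries the name cholesterol synthesis and uptake, but it holds no receptor that takes up lipoproteins from blood. Its transport genes act inside the cell.

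RNA was sequenced from the livers of male C57BL/6 mice in 4 groups of 3 libraries, 12 in all. FLOX mice carried the genotype LPCAT3flox/flox and LKO mice LPCAT3flox/flox-cre, so that both genotypes share the floxed allele, and the labels name no promoter for the Cre. Lpcat3 encodes an enzyme that attaches polyunsaturated acyl chains to lysophospholipids. FLOX-NC and LKO-NC are the control diet groups, and FLOX-HFHS and LKO-HFHS were given for 16 weeks a diet abbreviated HFHS, used to model steatohepatitis, whose sugar the labels call sucrose in 1 place and fructose in another. The stated age of 8 to 10 weeks is shorter than the feeding and must refer to another time than sampling in the HFHS groups. The labels give no feeding time for the control diet groups. Age at sampling may thus differ between the diets, and a difference by age cannot be told apart from one by diet. The labels do not state whether the libraries of a group are from different mice, and p-values thus measure the spread between these libraries, which may be technical.

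Hepatocytes build cholesterol from acetyl-CoA through mevalonate, farnesyl diphosphate, squalene and lanosterol. The genes of the route are known to be switched on together by SREBP-2, a transcription factor held in the endoplasmic reticulum. When membrane cholesterol is low, the escort protein SCAP carries it to the Golgi for cleavage, and when cholesterol or certain oxysterols are high, INSIG proteins keep it back. The cleaved factor binds a sterol element in promoters, often beside sites of NF-Y, which reads CCAAT, and Sp1, which reads GC-rich boxes.

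Promoter sequences are shown for the 4 members whose values on HFHS lay below every control diet library in both genotypes (Hmgcs1, Nsdhl, Ebp and Scap), and for 2 of the members with the largest differences by diet, Cyp51 and Msmo1. How many of all tested genes lay in this way was not counted, so that these 4 have no background share. Each window runs from 250 bases before to 50 bases after a start site in RefSeq, build GRCm38.p6, and is written 5′ to 3′ on the strand of the gene. The windows are chr13:119690101-119690400 (plus strand) for Hmgcs1, chrX:72918271-72918570 (plus strand) for Nsdhl, chrX:8193463-8193762 (minus strand) for Ebp, chr9:110333106-110333405 (plus strand) for Scap, chr5:4104648-4104947 (minus strand) for Cyp51 and chr8:64733529-64733828 (minus strand) for Msmo1. Capitals mark the sterol element letters TCACNCCAC or CACCCCAC and the NF-Y letters CCAAT, on either strand.
Hmgcs1: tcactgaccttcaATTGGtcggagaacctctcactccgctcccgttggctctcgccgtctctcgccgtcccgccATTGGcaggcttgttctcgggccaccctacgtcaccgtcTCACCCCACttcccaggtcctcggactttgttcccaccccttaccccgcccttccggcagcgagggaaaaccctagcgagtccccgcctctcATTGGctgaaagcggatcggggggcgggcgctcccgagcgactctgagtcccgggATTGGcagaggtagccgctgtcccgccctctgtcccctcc
Nsdhl: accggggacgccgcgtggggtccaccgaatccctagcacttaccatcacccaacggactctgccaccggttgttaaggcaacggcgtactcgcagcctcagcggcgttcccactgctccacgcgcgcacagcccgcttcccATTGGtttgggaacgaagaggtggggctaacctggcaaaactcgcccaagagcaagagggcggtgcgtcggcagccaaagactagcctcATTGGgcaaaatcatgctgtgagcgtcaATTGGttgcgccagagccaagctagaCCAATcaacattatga
Ebp: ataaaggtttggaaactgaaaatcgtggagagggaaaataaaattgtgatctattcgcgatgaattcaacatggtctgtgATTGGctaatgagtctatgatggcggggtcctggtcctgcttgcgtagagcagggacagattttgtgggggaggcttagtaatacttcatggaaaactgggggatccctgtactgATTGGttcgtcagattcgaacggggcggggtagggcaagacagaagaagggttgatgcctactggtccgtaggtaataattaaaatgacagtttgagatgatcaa
Scap: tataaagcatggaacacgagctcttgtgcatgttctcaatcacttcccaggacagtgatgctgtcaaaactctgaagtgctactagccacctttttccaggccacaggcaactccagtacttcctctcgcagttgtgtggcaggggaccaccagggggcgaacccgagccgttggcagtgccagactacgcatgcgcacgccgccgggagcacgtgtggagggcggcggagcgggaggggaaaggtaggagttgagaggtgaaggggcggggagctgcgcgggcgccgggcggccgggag
Cyp51: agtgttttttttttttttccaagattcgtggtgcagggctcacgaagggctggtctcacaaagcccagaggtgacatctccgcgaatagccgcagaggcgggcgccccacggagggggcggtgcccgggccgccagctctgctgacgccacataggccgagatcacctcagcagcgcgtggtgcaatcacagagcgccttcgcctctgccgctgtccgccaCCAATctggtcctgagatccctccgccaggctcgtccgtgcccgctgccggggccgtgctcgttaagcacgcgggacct
Msmo1: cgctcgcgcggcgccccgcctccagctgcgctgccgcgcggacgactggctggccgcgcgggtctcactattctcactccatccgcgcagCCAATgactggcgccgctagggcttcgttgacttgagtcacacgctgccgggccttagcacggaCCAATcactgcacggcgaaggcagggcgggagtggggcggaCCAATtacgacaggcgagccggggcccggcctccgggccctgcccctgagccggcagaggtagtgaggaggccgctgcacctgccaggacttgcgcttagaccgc

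RefSeq promoter windows of this kind were at hand for 22 of the 28 members. The 2 sterol elements searched were TCACNCCAC and CACCCCAC, on both strands. In Hmgcs1 they overlap, with TCACNCCAC at position 114 and CACCCCAC at position 115 of the window, counted from its 5′ end. TCACNCCAC was found in 1 of the 22 members, Hmgcs1, against 1.44% of all 27025 genes with windows. CACCCCAC was found in 2, Hmgcs1 and Acat2, against 3.30% of all genes. CCAAT was found in 20 of the 22 members against 41.1% of all genes, and the Sp1 letters GGGCGG in 20 of the 22 against 38.2%. The Scap window has no CCAAT and no sterol element of these letters. A match of letters is a description and not a binding site, and a missing match says only that these letters are not in these windows.

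Several libraries stood apart before any gene was compared. Total counts per library ran from 34951150 to 59205759. The scaling factor was lowest in FLOX-HFHS replicate 1 (0.644) and next in FLOX-NC replicate 1 (0.752), and the 28 genes were low in both, at a mean of -0.80 and -0.20 (log2) from each gene's own mean over 12 libraries. The other FLOX-NC libraries stood at 0.47 and 0.69, and the other FLOX-HFHS libraries at -0.26 and -0.35. Ribosomal RNA took 8.40% to 42.3% of the counts of a library, with 42.3% in FLOX-NC replicate 1 against 12.8% and 8.40% in the other FLOX-NC libraries. It was 14.7%, 9.68% and 13.2% in LKO-NC, 34.8%, 26.6% and 31.0% in FLOX-HFHS and 34.8%, 17.3% and 10.6% in LKO-HFHS. The share was thus higher in every FLOX-HFHS library than in the control libraries other than FLOX-NC replicate 1, and its part in the results was tested only as a covariate. With this share as a covariate the diet called 8 members lower in FLOX and 1 in LKO, against 3 and 1 without it, where it called 5.70% and 2.54% of all tested genes lower. With the genotypes averaged that fit called 8 lower and 2 higher, Acat2 (0.57, adjusted p 0.0314) and Npc2 (0.65, adjusted p 0.0473), against 11 and 0, and it called 9.15% of all tested genes lower and 10.1% higher. The library labelled LKO-NC replicate 2 held 65.0 CPM of Lpcat3, against 25.4 and 19.4 CPM in the other LKO-NC libraries and 49.7 to 61.9 CPM in FLOX-NC. It goes against its label, and for the comparisons that use its group the counts of members called and the medians are also given without it. Albumin, the main secreted protein of hepatocytes, ran from 30071 to 73466 CPM, and the adrenal gene Cyp11b1 was at 0 counts in all 12 libraries.

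Enzymes of cholesterol synthesis, most of them among those that turn lanosterol into cholesterol, were lower in livers on the HFHS diet, while genes of sterol transport did not pass the test. With the genotypes averaged, 11 of the 28 genes fell and 0 rose (edgeR's quasi-likelihood test, adjusted by Benjamini-Hochberg over all 15982 genes, threshold 0.05), where 4.94% of all tested genes were called lower and 6.17% higher. The 11 were Hmgcs1, Mvk, Mvd, Fdft1, Cyp51, Tm7sf2, Msmo1, Nsdhl, Hsd17b7, Ebp and Scap. By place in the pathway, 3 of 8 mevalonate genes fell, 1 of 3 from squalene to lanosterol, 6 of 9 from lanosterol to cholesterol, 1 of 4 in sterol sensing and 0 of 4 in transport and esterification. The log2 fold change was negative for 25 of the 28, with a median of -0.56 against 0.022 over all tested genes, and 16 had an unadjusted p under 0.05, all of them lower. At that threshold 12.1% of all tested genes were lower, and 48.4% had a negative log2 fold change at any p.

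Without LKO-NC replicate 2, 8 members were called in the averaged comparison, where 3.19% of all tested genes were called lower, and Mvk, Mvd and Fdft1 were not. The median of the members was then -0.56. Without LKO-HFHS replicate 1 or without LKO-HFHS replicate 3 the count was 7, beside 3.82% and 2.49% of all tested genes called lower. Without FLOX-NC replicate 1 it was 14, beside 6.17%. The calls of Hmgcs1, Tm7sf2, Msmo1, Nsdhl, Hsd17b7, Ebp and Scap held in all 12 fits that each left out 1 library.

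**Figure D1:**
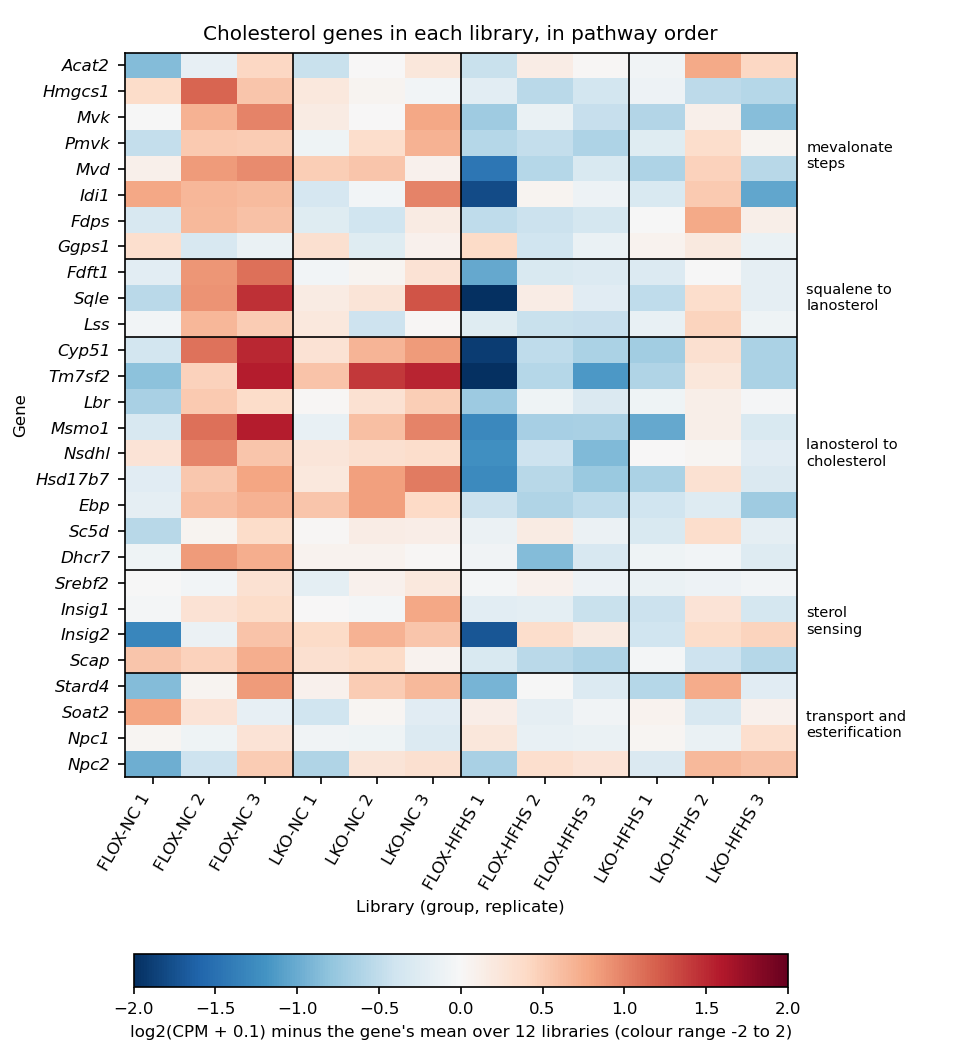
Level of each of the 28 genes (rows, in pathway order) in each of the 12 libraries (columns), as log2(CPM + 0.1) minus the gene's mean over the libraries, with CPM scaled by TMM. Rows of the steps from squalene to cholesterol are mostly red in FLOX-NC replicates 2 and 3 and blue in the FLOX-HFHS libraries, while FLOX-NC replicate 1 is paler or blue.

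In the mevalonate steps, 3 of 8 genes fell. Hmgcs1 (ENSMUSG00000093930, mm10 chromosome 13, 119690379 to 119708260, plus strand) encodes the cytosolic HMG-CoA synthase, which joins acetyl-CoA to acetoacetyl-CoA. Its promoter window above has a single stretch of letters that matches both sterol element patterns. Hmgcs1 was at 343, 597 and 391 CPM in FLOX-NC and at 308, 278 and 257 CPM in LKO-NC. On HFHS, Hmgcs1 was at 231, 184 and 206 CPM in FLOX and at 248, 186 and 179 CPM in LKO. Every HFHS library was below every control library. Hmgcs1 fell by diet with a log2 fold change of -0.78 ± 0.17 (SE) and an adjusted p of 0.0103.

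Mvk encodes mevalonate kinase, and Mvd the decarboxylase that makes isopentenyl diphosphate. Mvk was at 3.52, 5.79 and 7.16 CPM in FLOX-NC and at 3.98, 3.57 and 6.09 CPM in LKO-NC. On HFHS, Mvk was at 2.13, 3.23 and 2.55 CPM in FLOX and at 2.32, 3.83 and 1.91 CPM in LKO. The diets overlapped for Mvk, since LKO-HFHS replicate 2 exceeded FLOX-NC replicate 1 and LKO-NC replicate 2. Mvk fell with the genotypes averaged (-0.91 ± 0.26, log2 ± SE, adjusted p 0.0399), a call that held in 2 of 12 fits without 1 library, those that left out FLOX-NC replicate 1 or LKO-HFHS replicate 2. Mvd was at 6.27, 10.7 and 11.3 CPM in FLOX-NC and at 8.26, 8.66 and 6.18 CPM in LKO-NC. On HFHS, Mvd was at 2.09, 3.90 and 4.69 CPM in FLOX and at 3.79, 8.10 and 3.95 CPM in LKO. LKO-HFHS replicate 2 again lay among the control libraries. Mvd fell by 0.97 ± 0.26 (log2 ± SE, adjusted p 0.0339), and its call held in 4 of 12 such fits, those without FLOX-NC replicate 1, LKO-NC replicate 3, FLOX-HFHS replicate 3 or LKO-HFHS replicate 2. The highest adjusted p over these fits was 0.107 for Mvk and 0.0921 for Mvd.

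The other mevalonate genes did not pass the test. Pmvk, phosphomevalonate kinase, had a log2 fold change of -0.56 ± 0.22 (SE, adjusted p 0.128), and Idi1, the isopentenyl diphosphate isomerase, -0.79 ± 0.36 (SE, adjusted p 0.182). Idi1 was a low gene, between 1.15 CPM in FLOX-HFHS replicate 1 and 8.49 CPM in LKO-NC replicate 3. Fdps, which makes farnesyl diphosphate, differed little over both genotypes (-0.16 ± 0.20, adjusted p 0.659), with estimates of opposite sign in the 2 genotypes that are given below. Ggps1 makes geranylgeranyl diphosphate for protein prenylation and thus leaves the cholesterol route. Its log2 fold change was -0.011 ± 0.20 (SE, 95% interval -0.43 to 0.41). Ggps1 overlaps Arid4b on the opposite strand, a gene of 19.2 CPM on average, and whether counting used the strand is not known. Acat2, a cytosolic acetoacetyl-CoA thiolase, had 0.25 ± 0.23 (SE, adjusted p 0.539). Reads of Acat2 may be shared with its near-identical neighbour Acat3, which stood at a mean of 243 CPM over the 12 libraries against 11.8 to 36.7 CPM for Acat2, so that the split between them is uncertain.

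Squalene synthase, squalene epoxidase and lanosterol synthase come next. Fdft1 (mm10 chromosome 14, 63145150 to 63179578, minus strand) encodes squalene synthase. Fdft1 was at 40.7, 86.4 and 101 CPM in FLOX-NC and at 44.9, 48.8 and 57.0 CPM in LKO-NC. On HFHS, Fdft1 was at 23.1, 38.0 and 38.8 CPM in FLOX and at 38.6, 46.6 and 41.6 CPM in LKO. FLOX-NC replicates 2 and 3 were the highest, and FLOX-NC replicate 1 and LKO-NC replicate 1 lay below the highest HFHS library, LKO-HFHS replicate 2. Fdft1 fell with the genotypes averaged (-0.72 ± 0.21, log2 ± SE, adjusted p 0.0489), and of the 12 fits without 1 library only that without FLOX-NC replicate 1 kept the call. Its highest adjusted p over these fits was 0.112. The gene overlaps Ctsb on the opposite strand, a gene of 359 CPM on average whose log2 fold change was 0.42 ± 0.14 (SE, adjusted p 0.0791), and the sources used here do not state whether counting used the strand.

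Sqle, squalene epoxidase, is a rate-limiting enzyme of the later pathway. Sqle was at 7.17, 19.6 and 28.7 CPM in FLOX-NC and at 11.6, 12.5 and 25.0 CPM in LKO-NC. On HFHS, Sqle was at 1.15, 11.6 and 8.87 CPM in FLOX and at 7.27, 13.4 and 9.19 CPM in LKO. FLOX-HFHS replicate 1 held the lowest value by far, and the groups overlapped. Sqle had a log2 fold change of -1.03 ± 0.46 (SE, adjusted p 0.176) and did not pass the test. Lss, lanosterol synthase, had -0.33 ± 0.17 (SE, adjusted p 0.250).

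The steps from lanosterol to cholesterol held most of the genes that fell. Cyp51 (mm10 chromosome 5, 4081145 to 4104746, minus strand) is the lanosterol 14-alpha-demethylase. The gene overlaps Akap9 on the opposite strand, which had 20.1 CPM on average and a log2 fold change of 0.18 ± 0.26 (SE). Cyp51 was at 57.5, 157 and 212 CPM in FLOX-NC and at 91.0, 119 and 134 CPM in LKO-NC. On HFHS, Cyp51 was at 19.8, 52.4 and 47.9 CPM in FLOX and at 46.1, 92.6 and 47.9 CPM in LKO. FLOX-NC replicate 1 lay among the HFHS libraries, and LKO-HFHS replicate 2 was just above LKO-NC replicate 1. Cyp51 fell by 1.36 ± 0.33 (log2 ± SE, adjusted p 0.0195), and the call was lost without LKO-HFHS replicate 1 (adjusted p 0.05004) and without LKO-HFHS replicate 3 (0.0596).

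Tm7sf2 (mm10 chromosome 19, 6062821 to 6068373, minus strand) encodes the sterol C14-reductase, the step after Cyp51, and had the most negative averaged log2 fold change of the 28 genes. Tm7sf2 was at 21.0, 50.9 and 109.7 CPM in FLOX-NC and at 55.2, 98.8 and 106 CPM in LKO-NC. On HFHS, Tm7sf2 was at 9.24, 24.8 and 16.7 CPM in FLOX and at 24.3, 43.1 and 23.8 CPM in LKO. FLOX-NC replicate 1 was below every LKO-HFHS library, whereas all LKO-NC libraries were above all HFHS libraries. Tm7sf2 fell by 1.67 ± 0.37 (log2 ± SE, adjusted p 0.0122). The gene overlaps Vps51 on the same strand, which had 6.42 CPM on average and a log2 fold change of -0.26 ± 0.16 (SE). Lbr, the lamin B receptor, carries the same C14-reductase activity besides its role in the nuclear envelope. Its log2 fold change was -0.40 ± 0.21 (SE, adjusted p 0.242) and did not pass the test.

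Msmo1 and Nsdhl act one after the other to remove the methyl groups at the same carbon of the sterol ring. Msmo1 was at 32.8, 88.5 and 123 CPM in FLOX-NC and at 37.2, 62.2 and 82.3 CPM in LKO-NC. On HFHS, Msmo1 was at 16.8, 26.0 and 26.1 CPM in FLOX and at 20.2, 44.8 and 33.2 CPM in LKO. FLOX-NC replicates 2 and 3 and LKO-NC replicates 2 and 3 were above all HFHS libraries, and replicate 1 of each control group was not. Msmo1 fell by 1.35 ± 0.32 (log2 ± SE, adjusted p 0.0154).

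Nsdhl (mm10 chromosome X, 72918557 to 72958514, plus strand) is the sterol dehydrogenase of the same complex. Nsdhl was at 24.3, 39.6 and 29.6 CPM in FLOX-NC and at 23.8, 25.2 and 25.7 CPM in LKO-NC. On HFHS, Nsdhl was at 8.62, 15.1 and 10.9 CPM in FLOX and at 20.3, 20.8 and 17.3 CPM in LKO. Every HFHS library was below every control library, and in FLOX-HFHS each was also below each LKO-HFHS library. Nsdhl fell by 0.89 ± 0.17 (log2 ± SE, adjusted p 0.00463).

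Hsd17b7 reduces the ketone that Nsdhl leaves. Hsd17b7 was at 16.8, 28.5 and 34.0 CPM in FLOX-NC and at 22.6, 34.8 and 40.4 CPM in LKO-NC. On HFHS, Hsd17b7 was at 8.04, 13.3 and 11.6 CPM in FLOX and at 12.6, 24.3 and 15.9 CPM in LKO. LKO-HFHS replicate 2 lay above FLOX-NC replicate 1 and LKO-NC replicate 1, and the other HFHS libraries were below all control libraries. Hsd17b7 fell by 1.08 ± 0.23 (log2 ± SE, adjusted p 0.0105).

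Ebp (mm10 chromosome X, 8185329 to 8193512, minus strand) encodes the sterol isomerase that moves the double bond of the ring. Ebp was at 106, 183 and 193 CPM in FLOX-NC and at 176, 212 and 157 CPM in LKO-NC. On HFHS, Ebp was at 88.4, 79.0 and 83.8 CPM in FLOX and at 90.2, 100.3 and 72.6 CPM in LKO. All 6 HFHS libraries were below all 6 control libraries. Ebp fell by 0.995 ± 0.17 (log2 ± SE, adjusted p 0.00285). The last enzymes did not pass the test: Sc5d, the sterol desaturase, had a log2 fold change of -0.072 ± 0.18 (SE, 95% interval -0.46 to 0.31), and Dhcr7, which makes cholesterol from its last precursor in one branch, -0.56 ± 0.18 (SE, adjusted p 0.0634). Dhcr7 was at 23.9, 45.6 and 42.0 CPM in FLOX-NC and between 13.8 and 26.6 CPM in the other libraries.

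**Figure D2:**
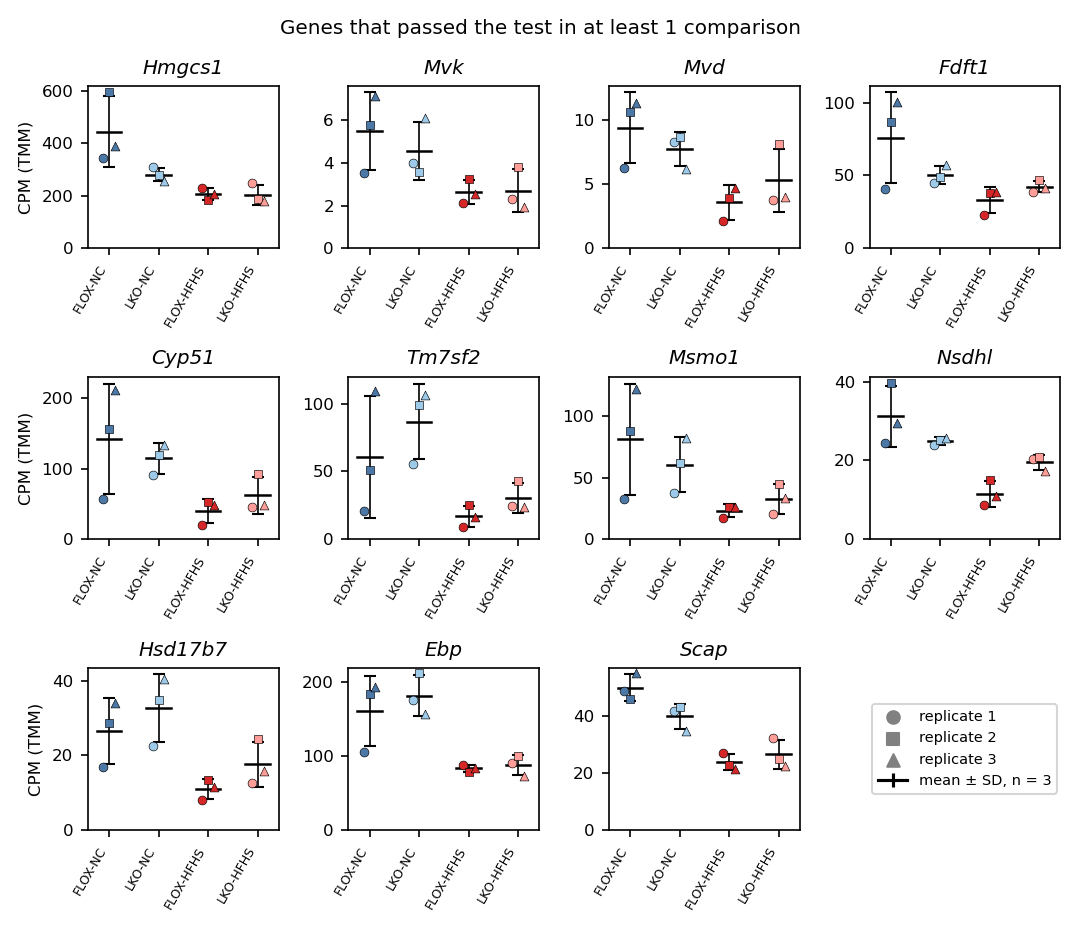
CPM (TMM scaled) of the 11 genes called in at least 1 comparison, by group, with 1 point per library (circle, square and triangle for replicates 1, 2 and 3) and the mean ± SD (n = 3) in black. HFHS libraries lie below all control libraries for Hmgcs1, Nsdhl, Ebp and Scap, and overlap them for the other genes. The share of all tested genes without such overlap was not counted.

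Of the sterol sensor, only the escort protein passed the test. Scap (mm10 chromosome 9, 110333288 to 110384950, plus strand) was at 48.7, 45.9 and 55.1 CPM in FLOX-NC and at 41.6, 43.2 and 34.8 CPM in LKO-NC. On HFHS, Scap was at 26.9, 22.8 and 21.6 CPM in FLOX and at 32.2, 24.9 and 22.4 CPM in LKO. The lowest control library was above the highest HFHS library, and Scap had the smallest p of the 28 genes. It fell by 0.83 ± 0.14 (log2 ± SE, adjusted p 0.00226), and it was also called in the limma fit of the authors' FPKM and without scaling factors. Srebf2, which encodes SREBP-2 itself, stood between 18.3 and 25.8 CPM in all 12 libraries. Its log2 fold change was -0.13 ± 0.13 (SE, 95% interval -0.40 to 0.15).

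The INSIG proteins hold the sensor in the endoplasmic reticulum, and Insig1 is itself a target of SREBP-2. Insig1 was at 134, 169 and 179 CPM in FLOX-NC and at 139.6, 135 and 235 CPM in LKO-NC. On HFHS, Insig1 was at 119, 121 and 101 CPM in FLOX and at 103, 167 and 109 CPM in LKO. LKO-NC replicate 3 was the highest, and the diets overlapped in LKO but not in FLOX. Insig1 had a log2 fold change of -0.46 ± 0.19 (SE, adjusted p 0.131). Insig2, the second family member, was at 61.8, 141 and 228 CPM in FLOX-NC and 47.0, 195 and 174 CPM in FLOX-HFHS, and between 116 and 247 CPM in the LKO libraries. Replicate 1 was the low library in both FLOX groups. Its log2 fold change was -0.21 ± 0.35 (SE, 95% interval -0.97 to 0.55), an interval too wide to tell a change from none. One transcript, ENSMUST00000003818, held 98.3% of its counts.

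None of the 4 transport and esterification genes passed the test. Stard4 carries cholesterol between membranes and is known as an SREBP-2 target. Stard4 was at 24.5, 46.7 and 81.4 CPM in FLOX-NC and at 47.8, 64.1 and 70.3 CPM in LKO-NC. On HFHS, Stard4 was at 23.6, 44.9 and 37.2 CPM in FLOX and at 30.1, 75.6 and 38.5 CPM in LKO. Its diets overlapped in both genotypes, and the log2 fold change was -0.43 ± 0.30 (SE, adjusted p 0.394). Npc2 binds cholesterol in the lysosome and hands it to Npc1. Npc2 was at 14.2, 20.9 and 39.9 CPM in FLOX-NC and at 18.3, 33.5 and 34.8 CPM in LKO-NC. On HFHS, Npc2 was at 17.7, 35.2 and 33.9 CPM in FLOX and at 22.9, 43.6 and 41.9 CPM in LKO. Replicate 1 was the lowest library in each of the 4 groups. Npc2 had a log2 fold change of 0.27 ± 0.29 (SE, adjusted p 0.607), Npc1 0.077 ± 0.14 (SE, 95% interval -0.22 to 0.38), and Soat2, which esterifies cholesterol in hepatocytes, -0.12 ± 0.17 (SE, adjusted p 0.723).

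Per length of transcript, in the authors' FPKM, the levels of the members in FLOX-NC spanned from 1.54 ± 0.0940 (SD, n = 3) for Ggps1 to 104 ± 42.4 for Hmgcs1. Ebp (82.2 ± 31.0) and Fdps (57.7 ± 27.0) followed Hmgcs1, and the spans of mean ± SD of the 3 overlapped. Mvk, Idi1, Lss and Lbr were near the lower end, at means of 2.17, 1.96, 2.39 and 2.23 FPKM.

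In FLOX livers taken alone, 3 of the 28 genes fell on HFHS and 0 rose, where 1.31% of all tested genes were called lower and 1.6% higher. They were Nsdhl (-1.43 ± 0.24, log2 ± SE, adjusted p 0.00799), Scap (-1.07 ± 0.20, adjusted p 0.0129) and Hmgcs1 (-1.10 ± 0.24, adjusted p 0.0292). The log2 fold change was negative for 26 of the 28, all but Acat2 and Npc2, and 16 were lower at an unadjusted p under 0.05. At that threshold 8.86% of all tested genes were lower, and 50.4% had a negative log2 fold change at any p. The median of the members was -0.89 against -0.0054 over all tested genes. For 14 of the 28 genes every FLOX-HFHS library was below every FLOX-NC library, as for 8.99% of all tested genes. The largest log2 fold changes belonged to Tm7sf2 (-1.84 ± 0.53), Cyp51 (-1.83 ± 0.47) and Msmo1 (-1.82 ± 0.45), whose adjusted p of 0.0879, 0.0599 and 0.0506 missed the threshold.

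The count of members called in FLOX was sensitive to single libraries. Without FLOX-NC replicate 1 it was 13, beside 1.48% of all tested genes called lower. Without FLOX-HFHS replicate 1 it was 2, without FLOX-HFHS replicate 2 it was 1, and without FLOX-HFHS replicate 3 it was 0. Of all tested genes, 1.34%, 0.271% and 0.321% were called lower in those fits, against 1.31% with all libraries. The medians of the members were then -0.82, -0.84 and -0.88, against -0.89 with all libraries. The Nsdhl call was lost without FLOX-HFHS replicate 3 (adjusted p 0.0603), and that of Scap without FLOX-HFHS replicate 2 (0.0727) or 3 (0.0858). That of Hmgcs1 was lost without FLOX-NC replicate 2 (0.119), FLOX-HFHS replicate 1, 2 or 3 (0.0562, 0.149 and 0.142) or LKO-HFHS replicate 2 or 3 (0.0524 and 0.0535). DESeq2 called 12 members lower in FLOX and limma voom 15, Nsdhl, Scap and Hmgcs1 among them in both. These fits called 3.80% and 9.43% of all tested genes lower, against 1.31% in the edgeR fit.

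**Figure D3:**
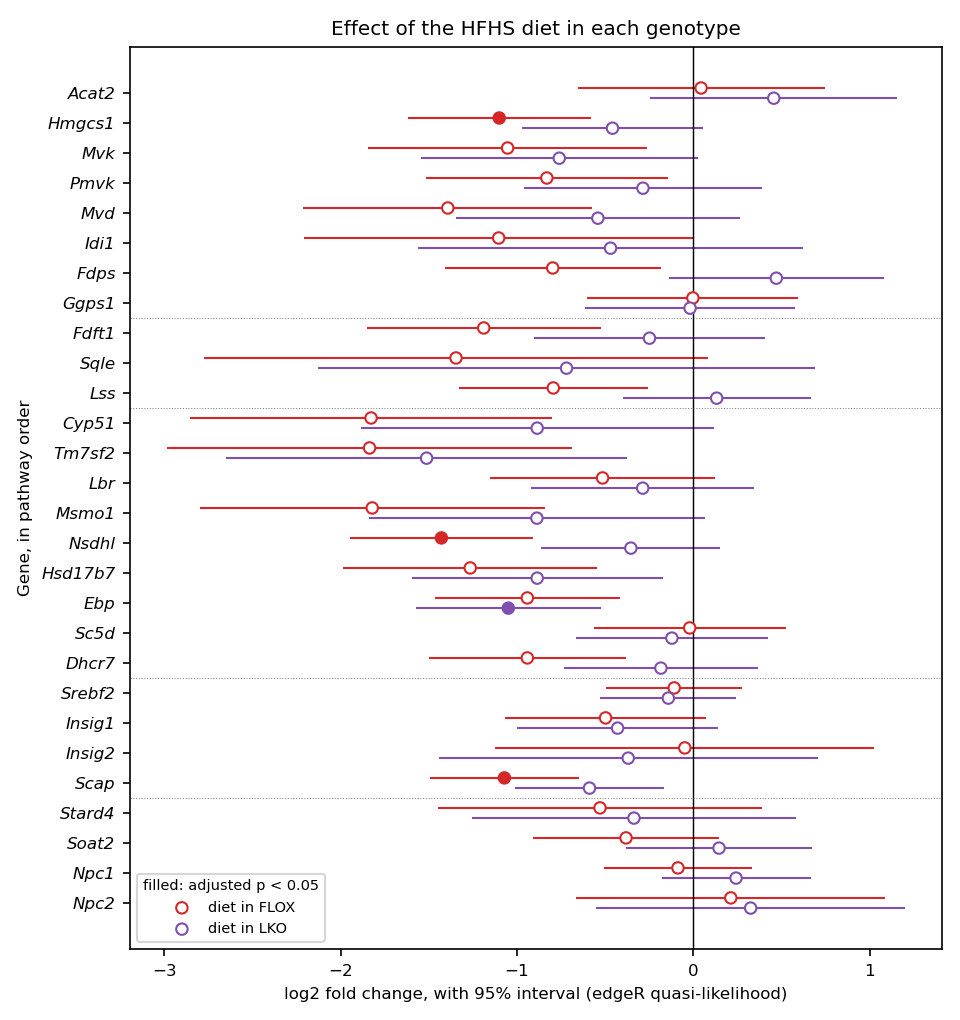
Log2 fold change of each of the 28 genes by the HFHS diet in FLOX (red) and in LKO (purple), with 95% intervals from the edgeR fit; filled points have an adjusted p under 0.05. The filled points are Hmgcs1, Nsdhl and Scap in FLOX and Ebp in LKO, and the intervals of the 2 genotypes overlap for all genes but Nsdhl and Fdps.

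In LKO livers the same comparison called 1 member, Ebp, which fell by 1.05 ± 0.24 (log2 ± SE, adjusted p 0.0312), where 1.5% of all tested genes were called lower and 2.25% higher. Without LKO-NC replicate 2, the library that goes against its label, 0 members were called, where 0.699% of all tested genes were called lower. Ebp then had a log2 fold change of -0.92 with an adjusted p of 0.148. The Ebp call was also lost without LKO-NC replicate 1 or 3, FLOX-HFHS replicate 2 or 3, or any 1 of the LKO-HFHS libraries, with adjusted p values of up to 0.186. With the replicate number as a block, 4 members were called lower in LKO: Ebp (adjusted p 0.0144), Tm7sf2 (0.0499), Msmo1 (0.0388) and Hsd17b7 (0.0139), where that fit called 3.15% of all tested genes lower. A fit with the block and without LKO-NC replicate 2, added after the data were seen, called 1 member lower, Hsd17b7 (adjusted p 0.0369), and 0.954% of all tested genes. Ebp, Msmo1 and Tm7sf2 had adjusted p values of 0.0820, 0.0843 and 0.137 in it. Without the block and over all 12 libraries, the log2 fold change was negative for 22 of the 28, with a median of -0.35 against 0.05 over all tested genes, and Tm7sf2, Scap, Hsd17b7 and Ebp had an unadjusted p under 0.05. At that threshold 7.41% of all tested genes were lower, and 46.6% had a negative log2 fold change at any p. The size of the median of the members moved with single libraries and settings. It was -0.20 without LKO-NC replicate 3, -0.22 without LKO-HFHS replicate 1 and -0.30 without LKO-NC replicate 2. With the ribosomal RNA share in the model it was -0.13, with 18 of 28 negative, without a scaling factor -0.059, and in the limma fit of FPKM -0.15. Over all tested genes the median was 0.32 without a scaling factor and 0.26 in the limma fit of FPKM.

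For 6 of the 28 genes every LKO-HFHS library was below every LKO-NC library, as for 13% of all tested genes, namely Hmgcs1, Tm7sf2, Nsdhl, Ebp, Dhcr7 and Scap. Without a scaling factor the calls over all genes shifted towards the higher side in LKO, to 410 higher and 99 lower against 359 and 240 with it, and 0 members were called. With the genotypes averaged the split was 888 and 376 against 986 and 790, and Tm7sf2, Ebp and Scap remained called. In those fits the median of all genes lay at 0.32 (log2) in LKO and 0.12 averaged. The median of the members minus that of all genes was -0.38 and -0.62, against -0.40 and -0.58 with scaling.

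Whether the diet acted differently in the 2 genotypes was tested as an interaction, and 0 members passed, as did 0 of the 15982 genes (0% called in either direction). Nsdhl (1.07 ± 0.33), Fdps (1.27 ± 0.40), Lss (0.93 ± 0.35) and Fdft1 (0.94 ± 0.43, log2 ± SE) had an unadjusted p under 0.05, at adjusted p values of at least 0.955, and 23 of the 28 estimates were positive, with a median of 0.45 against 0.054 over all tested genes. Positive estimates at an unadjusted p under 0.05 made up 3.15% of all tested genes, and negative estimates at any p 46.7%. The median of the members was 0.18 without FLOX-NC replicate 3, 0.20 without FLOX-HFHS replicate 1, and 0.24 without LKO-HFHS replicate 2, where 18 of the 28 were positive. Without LKO-NC replicate 2 it was 0.45. DESeq2 and limma voom also called 0 members. Nsdhl and Fdps had the smallest p (0.00670 and 0.00738), and without LKO-NC replicate 2 these were 0.0146 and 0.0224.

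Fdps was at 54.4, 107 and 102 CPM in FLOX-NC and at 57.8, 51.4 and 75.9 CPM in LKO-NC. On HFHS, Fdps was at 47.6, 50.5 and 53.2 CPM in FLOX and at 68.0, 115 and 73.5 CPM in LKO. Fdps was lower in every FLOX-HFHS library than in every FLOX-NC library, and its diets overlapped in LKO. By diet it had a log2 fold change of -0.80 ± 0.28 (SE, adjusted p 0.162) in FLOX and 0.47 ± 0.28 (SE, adjusted p 0.429) in LKO, which share no library. For Nsdhl, whose values are given above, these were -1.43 ± 0.24 and -0.35 ± 0.23 (SE, adjusted p 0.483).

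No member passed the test between the genotypes on either diet. On the control diet 0 of the 28 genes passed the test, as did 0 of all tested genes (0%). Hmgcs1 (-0.66 ± 0.24, log2 ± SE, unadjusted p 0.0161) and Soat2 (-0.54 ± 0.24, 0.0467) had an unadjusted p under 0.05, both lower in LKO, with adjusted p values of 0.678 and 0.701. At that unadjusted threshold 4.63% of all tested genes were lower in LKO. Without LKO-NC replicate 2 the log2 fold changes of Hmgcs1 and Soat2 were -0.65 and -0.66, and 0 members were called. DESeq2 and limma voom called 0 members too. Every LKO-NC library was below every FLOX-NC library for Hmgcs1 and Scap, 2 of 28, where this held for 4.58% of all tested genes. The median was -0.20 against -0.049 over all genes, with 16 of 28 negative, near the 53.7% of all tested genes. Its sign and size rested on single libraries: it was 0.056 without FLOX-NC replicate 3, -0.12 without FLOX-NC replicate 2, and -0.084 or -0.092 when the first or the second LKO-NC library was left out. In the limma fit of FPKM the median was 0.029, against 0.078 over all genes.

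On the HFHS diet 0 of the 28 genes passed the test either, as did 0 of all tested genes (0%). The log2 fold change was positive in 25 of the 28, with a median of 0.33 against 0.015 over all tested genes. Nsdhl (0.75 ± 0.24, unadjusted p 0.00751) and Fdps (0.76 ± 0.28, unadjusted p 0.0187) had an unadjusted p under 0.05, both higher in LKO (log2 ± SE). At that threshold 1.73% of all tested genes were higher in LKO, and 48.2% had a negative log2 fold change at any p. Every LKO-HFHS library was above every FLOX-HFHS library for Pmvk, Fdps, Lss and Nsdhl, 4 of 28, where this held for 5.9% of all tested genes. Nsdhl stood at 11.6 ± 3.30 CPM in FLOX-HFHS and 19.5 ± 1.87 CPM in LKO-HFHS (SD, n = 3), and Fdps at 50.4 ± 2.81 and 85.4 ± 25.6 CPM. DESeq2 and limma voom called 0 members in this comparison. The median was 0.21 without FLOX-HFHS replicate 1 and 0.19 without LKO-HFHS replicate 2. Without the 2 libraries of lowest scaling factor it was 0.21, and with the share of ribosomal RNA in the model it was 0.12. The HFHS comparison shares its FLOX libraries with the diet comparison in FLOX, so that a low value there enters both.

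**Figure D4:**
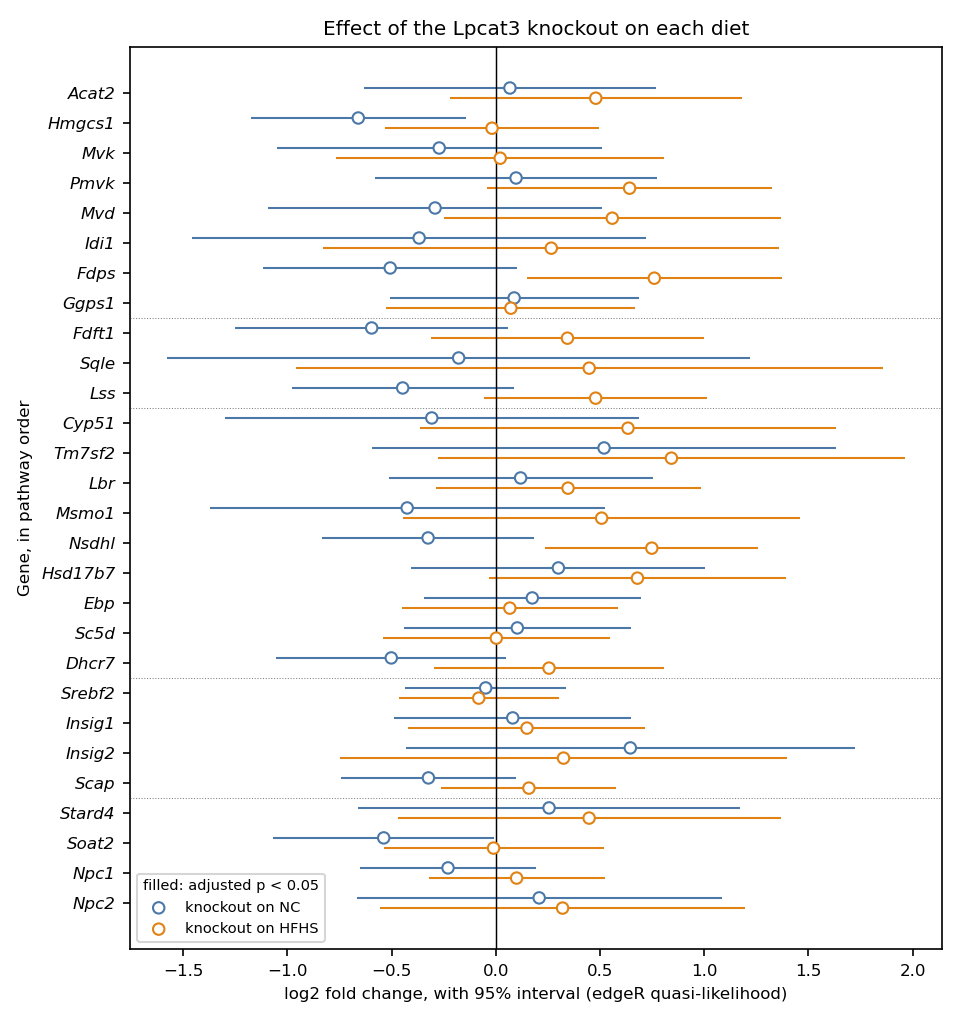
Log2 fold change of each of the 28 genes by the Lpcat3 knockout on the control diet (blue) and on the HFHS diet (orange), with 95% intervals from the edgeR fit; a filled point would mark an adjusted p under 0.05. No point is filled, and the HFHS estimates lie to the right of 0 for 25 of the 28 genes, where 48.2% of all tested genes had a negative estimate.

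Most synthesis genes varied together within groups, and whether other tested genes did so to the same extent was not measured. Over the 12 libraries, after each gene's group means were removed, 160 of the 190 pairs of the 20 synthesis genes had a positive correlation and 115 had r above 0.5, with a median of 0.60 and a range of -0.79 to 0.98. These values describe the libraries, which share depth, scaling and composition, and no test was made of them. Cyp51 had the highest median correlation with the other synthesis genes (0.844), then Hsd17b7 (0.803), and Stard4 outside the synthesis group reached 0.801. Hmgcs1 stood apart at -0.008, as did Ggps1 at -0.509, Scap at -0.236, Npc1 at -0.234 and Soat2 at -0.673. Among the genes that fell by diet with no overlap, Hmgcs1 and Scap had medians below 0 and Nsdhl and Ebp medians of 0.518 and 0.568.

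One pattern in the deposited estimates per transcript is described for Npc1. It was picked after the values were seen and carries no test. Npc1 is the lysosomal membrane protein that exports cholesterol, and its gene total differed little by diet, while the mean of 1 of its 2 main transcripts was higher on HFHS and that of the other lower. The coding transcript of 25 exons (ENSMUST00000025279) stood at 7.83 ± 3.55 CPM in FLOX-NC and 7.12 ± 3.55 CPM in LKO-NC, against 22.8 ± 4.24 CPM in FLOX-HFHS and 26.5 ± 5.23 CPM in LKO-HFHS (SD, n = 3). All HFHS libraries were above all control libraries. A short transcript of 5 exons with a retained intron (ENSMUST00000234044, mm10 chromosome 18, 12189692 to 12195407, minus strand), at the 3′ end of the gene, stood at 53.9 ± 11.6, 45.8 ± 7.52, 34.2 ± 7.52 and 35.6 ± 7.65 CPM in the same order of groups (SD, n = 3), and its diets overlapped. The coding transcript held 6.66% to 23.2% of the counts of the gene on the control diet and 33.5% to 49.2% on HFHS. The 3′ ends of both transcripts lie 1 base apart, the end of Rmc1 on the opposite strand overlaps it, and coverage along the gene was not analysed here. For Srebf2, the coding transcript ENSMUST00000023100 held 68.0% to 85.8% of the counts of the gene in FLOX-NC. In FLOX-HFHS it held 58.5% to 61.1%, without overlap. In LKO it held 70.1% to 78.4% on the control diet and 65.6% to 76.4% on HFHS, with overlap. The second Srebf2 transcript, ENSMUST00000230105, swung within groups, from 0% to 31.6% in FLOX-NC, 0% to 29.9% in LKO-NC and 0% to 34.4% in LKO-HFHS. The Srebf2 split is thus uncertain, and the share of all transcripts without overlap was not counted. For Hmgcs1, Mvk, Mvd, Fdft1, Tm7sf2 and Lbr the split between their 2 main transcripts swung between libraries of 1 group, and those splits were not used.

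**Figure D5:**
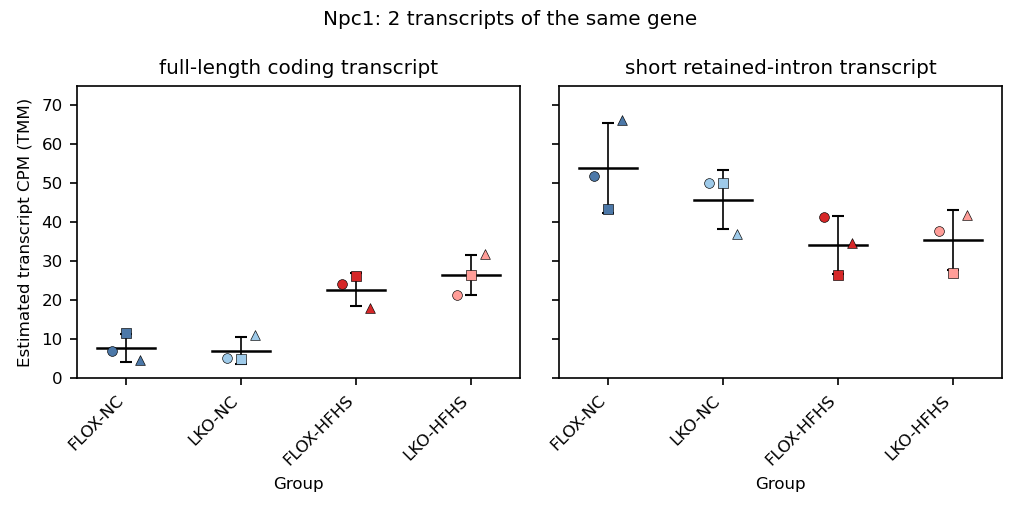
Estimated CPM (TMM scaled) of the 2 main Npc1 transcripts by group, with 1 point per library (circle, square and triangle for replicates 1, 2 and 3) and the mean ± SD (n = 3). The full-length coding transcript is higher in every HFHS library than in any control library, and the short transcript overlaps between diets.

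Other genes that branch from or act on the pathway were described from 3 lists, for the diet with genotypes averaged, where 6.17% of all tested genes were called higher and 4.94% lower. In the isoprenoid branch, which makes ubiquinone, dolichol and prenyl groups, 0 of 14 tested genes passed the test, and the median was -0.075 (log2). Of the 14, 2 were lower at an unadjusted p under 0.05, near the 12.1% of all tested genes that were lower at that threshold. The 2 were Rabggta, a subunit of the geranylgeranyl transferase for Rab proteins (-0.75 ± 0.26, SE, adjusted p 0.0798), and Trit1, which prenylates transfer RNA (-0.39 ± 0.18, adjusted p 0.182). In the list of sterol sensing and turnover, 1 of 16 tested genes rose and 2 fell, with a median of 0.12. Rnf145, a ubiquitin ligase of the sterol sensor, rose by 0.88 ± 0.21, and Aup1 and Ufd1, which act in degradation at the endoplasmic reticulum, fell by 0.55 ± 0.13 and 0.45 ± 0.11 (log2 ± SE, adjusted p 0.0166, 0.0155 and 0.0230). In the list of sterol handling, 3 of 22 tested genes rose and 0 fell, with a median of 0.022. Gramd1b, a carrier of cholesterol from the plasma membrane, rose by 1.38 ± 0.37, Soat1, the sterol esterifying enzyme of many cell types, by 1.36 ± 0.37, and Lipa, the lysosomal lipase, by 0.72 ± 0.21 (log2 ± SE, adjusted p 0.0291, 0.0317 and 0.0399). The median over all tested genes was 0.022.

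Markers of liver cell types moved with the diet as well, and in whole liver fewer cells of a type and less RNA per cell cannot be told apart. The counts below stand beside 6.17% of all tested genes called higher and 4.94% lower. Of 8 hepatocyte markers 3 fell, Tat, Hpd and Cps1, and 0 rose, with a median of -0.64 (log2) beside -0.56 for the 28 members. By genotype the median of these markers was -0.47 in FLOX and -0.85 in LKO, beside -0.89 and -0.35 for the members. The summed level of the hepatocyte markers was 48489 to 93897 CPM in FLOX-NC and 68104 to 86919 CPM in LKO-NC. On HFHS it was 43113 to 60062 CPM in FLOX and 40843 to 45527 CPM in LKO. Of 12 Kupffer cell and macrophage markers 11 rose, all but Timd4, with a median of 1.61, and their summed level was 63.6 to 119.9 CPM in FLOX-NC and 60.7 to 102 CPM in LKO-NC, against 162 to 315 CPM in FLOX-HFHS and 199 to 245 CPM in LKO-HFHS. Of 7 stellate cell and fibroblast markers 6 rose, of 5 cholangiocyte markers 2 (Epcam and Spp1), and of 6 endothelial markers 1 (Lyve1). Of the tested T and B cell (6), neutrophil (3), adipocyte (1) and adrenal cortex (2) markers 0 passed the test, and of the exocrine pancreas markers Cela1, the only one tested, fell. The defining markers of adipocytes, adrenal cortex and exocrine pancreas were low or at 0: Adipoq reached at most 0.143 CPM, Cyp11a1 0.202 and Pnlip 0.0823. The part of cell composition in the lower cholesterol genes was not tested by any measure of cell number. A fit with the mean of the macrophage markers as a covariate called 0 members and 0 genes by diet, and that mean ran from 1.25 to 1.89 (log2 CPM) on the control diet and from 3.05 to 3.97 on HFHS, with no overlap. The covariate thus went with the diet, and the loss of calls in this fit cannot tell the 2 apart. The median of the members in this fit was -0.55, against -0.56 without the covariate.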

How the data were processed

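Polyadenylated RNA from 12 mouse liver libraries was sequenced after preparation with kits of which 1 is stranded, per the labels' protocols. The submitters' processing notes name cutadapt, FastQC, HISAT2, StringTie, edgeR and the build mm10, without versions or settings. The authors made and deposited expected counts, that is estimated counts of reads assigned to each gene and transcript, all whole numbers. The authors also deposited FPKM per gene and transcript, normalized for length and depth. No count column lacked a sample (0 columns). Locations are those of the deposited tables.

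Estimated counts of 55401 genes were filtered with filterByExpr to 15982 genes, scaled by TMM and fitted over the 12 libraries in 1 model with 4 group means and 8 residual degrees of freedom (R 4.3.3, edgeR 4.0.16 quasi-likelihood, Benjamini-Hochberg adjustment over all 15982 genes, threshold 0.05). The test chosen at the start assumed raw counts, and it was run on these estimated counts. CPM use the TMM library sizes. The averaged diet effect is the mean of those in FLOX and LKO. Alternatives (27 settings, 1 of them added after the data were seen) included DESeq2 1.42.0, limma 3.58.1 voom, and limma on log2(FPKM + 0.1). Depth of 34951150 to 59205759 counts sets the counting error; replicates differed beyond it (chi-square per gene of at least 81.8 between any pair of 1 group).

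All 28 members are described, with values per library for each member called, for the 2 of smallest p in each of 5 roles and for that of smallest p in each comparison. The members and lists were chosen with earlier results of these data known. Replicate numbers come from the sample titles. Same-numbered libraries deviated together by diet in LKO (r of 0.29, 0.12 and 0.10 across genes, each over 0.1), and there the block is given beside the result; in the other comparisons at least 1 pair was below 0.1. Promoter windows come from RefSeq (GRCm38.p6) and matched 22 of 28 members by symbol.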

Additional observations from a re-analysis of the deposited data

How the results depend on the processing

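No result changed direction past a threshold under the 27 settings. The median of the members by diet stayed negative in all of them, and 0 members were called by genotype or interaction in any; the median on the control diet by genotype, which is not a called value, was above 0 in 3 settings (0.056 without FLOX-NC replicate 3, 0.041 with the block and without LKO-NC replicate 2, and 0.029 with FPKM). Members called by diet in FLOX were 3 as reported (1.31%), with the share of all genes of a fit called lower in brackets. The count was 1 without scaling (1.02%) or with FPKM (0.901%), 5 without the filter (0.688%) and 7 with CPM of at least 1 in 3 libraries (1.83%). It was 12 with DESeq2 (3.80%) or without the libraries numbered 1 (2.70%), and 15 with limma voom (9.43%). With the 6 libraries compared it was 0 (0.302%), without the 2 libraries scaled lowest 10 (1.82%) and with the ribosomal RNA share 8 (5.70%). In LKO, 1 as reported (1.50%), they were 0 without scaling (0.619%) or with FPKM (0.644%), 3 with DESeq2 (3.98%) and 5 with limma voom (6.59%). They were 2 with the 6 libraries compared (2.44%) or without the 2 scaled lowest (3.06%). With the genotypes averaged, 11 as reported (4.94%), they were 3 without scaling (2.35%) and 2 with FPKM (2.21%). The macrophage covariate left 0 members and 0 genes called by diet in each of the 3, but it went with the diet and cannot be told apart from it. Leaving out 1 library gave 0 to 13 in FLOX, 0 to 1 in LKO and 7 to 14 averaged. Of all tested genes, 0.271% to 1.49%, 0.484% to 2.43% and 2.49% to 6.17% were called lower in those fits.

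Genes called by diet in FLOX, 464 as reported, were 299 without scaling, 1294 with DESeq2, 3015 with voom, 111 with 6 libraries, 918 without libraries numbered 1, 1951 with the ribosomal share, 276 with FPKM and 122 to 535 without 1 library. In LKO, 599 as reported, they were 1568 with DESeq2, 2284 with voom, 1052 without the 2 scaled lowest, 920 with the ribosomal share and 220 to 887 without 1 library. Averaged, 1776 as reported, they were 2893 with DESeq2, 4833 with voom, 3084 with the ribosomal share and 1025 to 2345 without 1 library. Genes called by genotype on the control diet, 0 as reported, were 2 without the filter, 67 with DESeq2, 1 with voom, 4 without libraries numbered 1, 1 with the macrophage covariate and 0 to 2 without 1 library. On HFHS they were 1 without scaling, 43 with DESeq2, 78 with voom and 2 with FPKM. The interaction gave 33 with DESeq2, 2 without libraries numbered 1 and 0 to 1 without 1 library. Without scaling the median of the members was 0.73 by genotype on HFHS and 0.79 for the interaction, and 0.77 on HFHS with FPKM. The median over all tested genes moved as well, to 0.45, 0.40 and 0.42. The median of the members minus that of all genes was then 0.28, 0.39 and 0.35. As reported it was 0.32 on HFHS and 0.39 for the interaction. The cause was not tested.

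With the replicate block, members called were 11 in FLOX, 4 in LKO and 12 averaged, all lower. That fit called 4.27%, 3.15% and 8.83% of all tested genes lower, against 1.31%, 1.50% and 4.94% as reported. Genes called in both directions were 1257, 1118 and 2921, with 1 by genotype on the control diet and 5 on HFHS. With the block and without LKO-NC replicate 2, chosen after seeing the data, members called were 10, 1 and 13, beside 3.24%, 0.954% and 5.74% of all tested genes called lower. Genes called in both directions were 1045, 391 and 2048, with 10 by genotype on the control diet, 5 on HFHS and 2 for the interaction. Outside the diet in LKO, the pair of libraries numbered 1 had r of 0.25 across genes by diet in FLOX. By genotype that pair had 0.30 on the control diet and 0.23 on HFHS. The other pairs of these comparisons ran from -0.033 to 0.19. Whether same-numbered libraries share a batch was not tested.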
